A study of Homo sapiens with 5 samples.

Results

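The centromere windows described here are 14 stretches of the human autosomes 2, 3, 4, 5, 6, 7, 8, 10, 11, 12, 17, 18, 19 and 20, together 50.4 Mb of GRCh38 and each between 2.15 Mb (chromosome 2) and 5.5 Mb (chromosome 18) long. A peak was a member when its midpoint fell inside a window, so the choice used position and no measured value. The members were 3770 of 13455 H3K9me3 peaks in the KD list and 4416 of 26364 in the EV list. A further list, whose name carries no genotype, held 4823 members among 15215 peaks and is called the unnamed list. The windows ran from 92.04 to 94.19 Mb on chromosome 2, 91.51 to 93.84 Mb on chromosome 3, 49.59 to 51.83 Mb on chromosome 4, 45.7 to 50.4 Mb on chromosome 5 and 58.12 to 60.28 Mb on chromosome 6. They ran from 57.87 to 63.01 Mb on chromosome 7, 43.54 to 46.55 Mb on chromosome 8, 38.72 to 42.15 Mb on chromosome 10, 50.42 to 54.59 Mb on chromosome 11 and 34.25 to 37.58 Mb on chromosome 12. The last 4 ran from 22.8 to 26.9 Mb on chromosome 17, 15.4 to 20.9 Mb on chromosome 18, 24.4 to 27.7 Mb on chromosome 19 and 25.6 to 30.4 Mb on chromosome 20.

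The study immunoprecipitated histone H3 trimethylated at lysine 9 (H3K9me3) from formaldehyde-crosslinked, sonicated chromatin of HEK293T, a human embryonic kidney line carrying the SV40 large T antigen, and sequenced the DNA (ChIP-seq). The 5 samples are H3K9me3 libraries of KD, EV and WT cells and input libraries, which are chromatin without immunoprecipitation, of EV and WT cells, all grown in DMEM. KD is read as the knockdown of the design's target KCNQ1OT1_K, whose suffix is not explained, and EV as the empty-vector control. The labels do not give the knockdown method. Each group had 1 library, so no difference below has a replicate check, no test between conditions was made, and the intervals cover counting error over peaks only. The lists hold no read counts, so the depth is unknown, and they hold no RNA, so neither the targeted transcript nor the cell line's markers were checked. A shallower library yields fewer and narrower peaks, and this cannot be told apart from less of the mark.

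Centromeres are where the kinetochore assembles, on nucleosomes that carry the histone H3 variant CENP-A. In human chromosomes they lie within arrays of alpha satellite, a tandem repeat, and are flanked by pericentromeric heterochromatin. There the methyltransferases SUV39H1 and SUV39H2 deposit H3K9me3, which HP1 proteins bind. In GRCh38 the arrays are modelled sequences, and reads from repeats can match many places, so the position and width of every peak below carry that uncertainty.

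Sequences are shown for the annotated promoters of the windows that a KD or EV peak covered, since there the mark met a gene start. Promoters are RefSeq windows of 300 bases around the gene start (GRCh38.p14, printed 5′ to 3′ on the gene's strand), and capitals mark each CpG dinucleotide (the letters CG, the same on both strands). MIR663AHG, the non-coding host gene of a microRNA, has its promoter at chr20:26209184-26209483 on the minus strand, and LOC101926935 at chr20:25853972-25854271 on the minus strand. For the mature microRNA inside the host gene, hsa-miR-663a at chr20:26208243-26208264 on the minus strand, capitals mark the seed, bases 2 to 8.
MIR663AHG promoter: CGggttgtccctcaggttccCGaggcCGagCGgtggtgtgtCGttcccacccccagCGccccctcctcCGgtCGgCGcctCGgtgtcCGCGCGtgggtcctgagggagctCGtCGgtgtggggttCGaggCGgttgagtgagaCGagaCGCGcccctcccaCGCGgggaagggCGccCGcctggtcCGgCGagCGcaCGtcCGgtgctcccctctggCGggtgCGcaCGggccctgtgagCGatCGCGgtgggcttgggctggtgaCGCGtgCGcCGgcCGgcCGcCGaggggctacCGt
LOC101926935 promoter: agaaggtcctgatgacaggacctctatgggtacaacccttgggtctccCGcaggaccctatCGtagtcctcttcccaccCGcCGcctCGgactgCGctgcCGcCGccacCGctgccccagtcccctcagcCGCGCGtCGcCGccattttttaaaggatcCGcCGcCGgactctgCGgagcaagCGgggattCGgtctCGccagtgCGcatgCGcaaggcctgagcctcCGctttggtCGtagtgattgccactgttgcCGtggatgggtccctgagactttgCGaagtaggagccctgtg
hsa-miR-663a: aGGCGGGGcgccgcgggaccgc

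The MIR663AHG promoter holds 43 CpGs at 75.3% GC and the LOC101926935 promoter 27 at 64.0% GC. Over all 35116 promoters of the table the median was 14 CpGs and 58.7% GC, and 96.0% held at least 1 CpG. All 300 bases of the MIR663AHG promoter lay under a peak in KD and in EV, while only EV had a peak on the LOC101926935 promoter, over 299 of its 300 bases.

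In the 14 windows, H3K9me3 peaks covered 7.74 Mb in KD cells and 17.0 Mb in EV cells, which is 15.4% and 33.7% of the sequence. Covered length was lower in KD in 14 of 14 windows. Outside the windows it was lower on each of the 24 chromosomes as well (100%). The number of peaks differed less than their length: the KD/EV ratio was 0.854 for number (exact 95% interval 0.817 to 0.892) and 0.456 for covered length. The number ratio turned above 1 under other settings, to 1.07 among peaks of fold 3 or more, 1.03 after joining peaks within 3 kb and 1.29 when the EV list was limited to as many peaks as KD. Peaks were narrower in KD, with a median width of 1463 bp (quartiles 885 and 2544) against 2373 bp (quartiles 1273 and 4361) in EV.

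The number ratio was higher in the windows than in the DNA around them, as the plot of ratios by genomic context shows. In the 3 Mb on each side of the windows the KD/EV number ratio was 0.379 (0.339 to 0.423). It was 0.373 (0.36 to 0.387) in the rest of the same 14 chromosomes and 0.527 (0.508 to 0.546) on the other chromosomes. The covered-length ratios in those contexts were 0.33, 0.314 and 0.431. In their own chromosomes, 12 of 14 windows had a higher number ratio than the remaining sequence, and 11 of 14 a higher covered-length ratio. The higher covered-length ratio of the windows, 0.456 against 0.384 over everything outside, depended on the peak threshold. It was 0.509 against 0.487 among peaks of fold 3 or more, 0.391 in the windows and 0.391 outside when −log10 q was at least 2, and 0.548 against 0.568 when the EV list was limited to as many peaks as KD. The number ratio stayed higher in the windows in these 3 settings, at 1.07 against 0.692, 0.711 against 0.457 and 1.29 against 0.912. The ratio of median widths, KD over EV, was 0.617 in the windows, 0.874 outside and 0.992 on the other chromosomes.

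**Figure D1:**
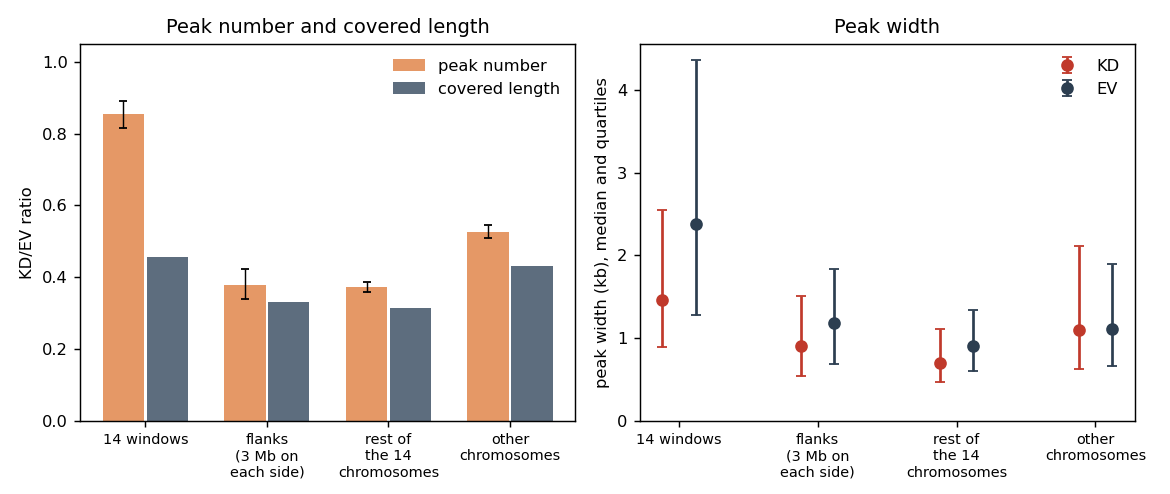
Left, KD/EV ratio of peak number (with exact 95% intervals, counting error only) and of covered length in the windows, the 3 Mb flanks, the rest of the 14 chromosomes and the other chromosomes. Right, median peak width in kb with quartiles: the number ratio is highest in the windows, at 0.854, and the widths of KD and EV are farthest apart there, at medians of 1463 and 2373 bp.

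The windows held 37.6% of all bases under KD peaks on chromosomes and 33.6% of those under EV peaks. This difference depended on the peak threshold. The shares were 37.4% in KD and 37.4% in EV at −log10 q of at least 2, and 37.9% and 36.9% at fold of at least 3. With the EV list limited to as many peaks as KD they were 37.6% and 38.4%. By number the windows held 29.8% of KD peaks and 17.9% of EV peaks. The peaks there were broader than elsewhere in both lists, with medians outside of 864 bp in KD and 988 bp in EV. Peaks of at least 10 kb numbered 33 of 3770 in KD and 288 of 4416 in EV. Outside the windows they were 83 of 8880 in KD and 329 of 20249 in EV, and 72 and 300 of these lay on the other chromosomes. In KD such wide peaks were therefore no more frequent in the windows than outside. The fold enrichment and the −log10 p of a peak are the authors' values against the caller's background, and each describes its own list only. The median fold was 3.59 in KD and 3.33 in EV, and the median −log10 p 5.0 in KD and 5.76 in EV. Peaks with −log10 p of at least 10 made up 13.0% of members (490) in KD and 21.9% (969) in EV, against 11.9% and 13.7% outside.

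Windows differed widely in how much of them was marked. Chromosomes 8 and 7 were the most covered, chromosome 8 with 28.0% in KD and 50.7% in EV, and chromosome 7 with 26.1% in KD and 49.2% in EV. Next came chromosome 12 with 19.6% in KD and 48.9% in EV, and chromosome 19 with 22.4% in KD and 45.5% in EV. These are the 4 windows with the highest covered share in EV. In the lists as reported they are also the only 4 of 14 in which KD had more peaks than EV. That count of windows depended on the setting. It was 9 with the EV list limited to as many peaks as KD, 7 at fold of at least 3 and 2 at −log10 q of at least 2. The chromosome 8 window had 303 peaks in KD and 156 in EV, with median widths of 2048 bp in KD and 6313 bp in EV. Chromosome 7 had 442 peaks in KD and 267 in EV, with medians of 2187.5 and 4396 bp. Chromosome 12 had 331 in KD and 305 in EV, and chromosome 19 had 368 in KD and 325 in EV. In each of these 4, more and narrower KD peaks summed to a smaller covered length, with KD/EV ratios between 0.401 and 0.551.

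Chromosomes 18, 5, 11 and 2 formed a middle group by coverage. Chromosome 18 held the most peaks of any window, 615 in KD and 685 in EV, covering 19.6% in KD and 37.8% in EV. Chromosome 5 had 421 in KD and 450 in EV, covering 17.1% in KD and 35.7% in EV. Chromosomes 11 and 2 had lower ratios: peaks covered 13.4% of the chromosome 11 window in KD and 42.3% in EV (ratio 0.318), and 8.65% of the chromosome 2 window in KD and 37.5% in EV (ratio 0.231). Chromosome 11 had 349 peaks in KD and 446 in EV, and chromosome 2 had 143 in KD and 285 in EV.

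The remaining 6 windows were covered to at most 30.8% in EV. Chromosome 4 was covered to 13.8% in KD and 30.8% in EV, and chromosome 10 to 14.9% in KD and 25.8% in EV. The chromosome 10 ratio, 0.579, was the highest of the 14. Chromosome 20 had 8.23% in KD and 15.2% in EV, and chromosome 3 had 5.01% in KD and 15.3% in EV. The sparsest windows were chromosome 6, with 1.97% in KD and 13.8% in EV, and chromosome 17, with 3.88% in KD and 12.6% in EV. Chromosome 6 also had the lowest KD/EV ratio, 0.143, with 57 peaks in KD and 210 in EV and median widths of 608 and 1125.5 bp. KD peaks were not narrower everywhere: on chromosome 3 the medians were 2093 bp in KD and 1489 bp in EV, and on chromosome 17 they were 1653 bp in KD and 1620 bp in EV.

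**Figure D2:**
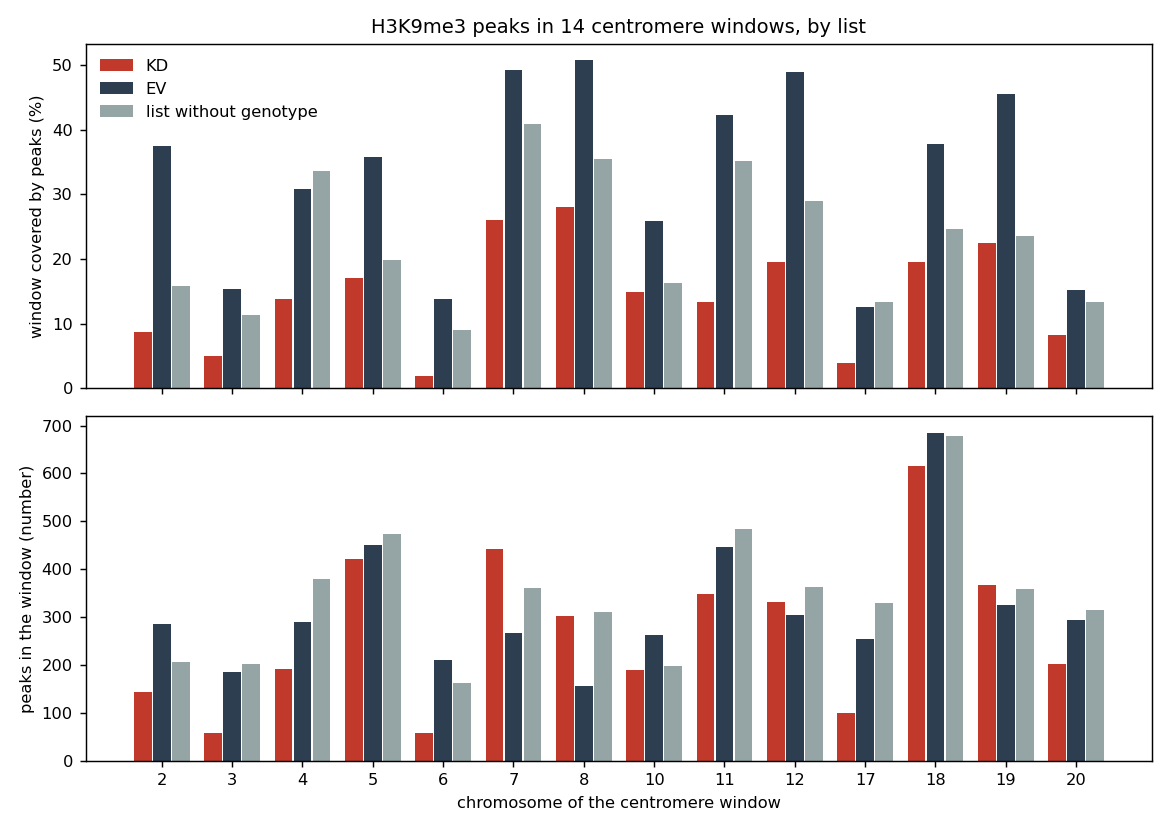
Covered share (percent of the window) and number of peaks in each of the 14 windows for KD, EV and the unnamed list, 1 bar per list. KD covers less than EV in all 14, from 1.97 against 13.8% on chromosome 6 to 28.0 against 50.7% on chromosome 8. In the lists as reported, drawn here, KD has more peaks than EV on chromosomes 7, 8, 12 and 19.

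Across the 14 windows, Spearman's rho between the median −log10 p of EV peaks and the KD/EV covered-length ratio was 0.832. With the covered-length ratio, rho was only 0.433 for the median EV width and 0.367 for the EV covered share. With the number ratio, rho was 0.671 for the median −log10 p, 0.916 for the median width and 0.881 for the covered share. These describe the windows, which share both libraries, and are not independent. The EV peaks that give the median strength, width and coverage also give the denominator of both ratios. How much of each rho follows from that was not tested.

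Most KD peaks touched an EV peak, and the shares depended on the overlap asked for. Of 3770 KD members, 3650 overlapped an EV peak by at least 1 bp (96.8%, 96.2 to 97.4), against 87.7% of all KD peaks and 83.8% outside the windows. Of 4416 EV members, 2731 overlapped a KD peak (61.8%, 60.4 to 63.3), against 37.7% of all EV peaks and 32.5% (31.8 to 33.1) outside. When the overlap had to reach 50% of both peaks, the shares were 35.9% of KD members and 30.6% of EV members. At 1 bp, the window with the smallest overlap was chromosome 6, where 23.8% of EV peaks met a KD peak, and the one with the largest was chromosome 8, at 87.8%. By bases, 94.5% of the length under KD members was also under EV peaks, and 43.0% of the length under EV members was under KD peaks. The share of EV bases was lowest on chromosome 6 and highest, at 56.5%, on chromosome 10.

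The unnamed list overlapped the others more often in the windows than over all chromosomes. Of KD members, 2774 (73.6%) overlapped a peak of the unnamed list, against 45.5% of all KD peaks, and of EV members 2940 (66.6%) did, against 24.7% of all EV peaks. In the other direction, 2529 of its members (52.4%) met a KD peak and 3596 (74.6%) an EV peak, against 35.6% and 50.2% of all its peaks. Both other lists were met by 2720 KD members (72.1%), 2205 EV members (49.9%) and 2484 members of the unnamed list (51.5%). Outside the windows these shares were 32.2% in KD, 11.1% in EV and 25.6% in the unnamed list. The median −log10 p was 8.4 for EV members met by both, with widths centred on 3748 bp, and 3.84 for the 950 met by neither, centred on 1176.5 bp. These 950 were 21.5% of EV members, against 63.0% of EV peaks outside the windows that met neither.

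Counted at 1 bp, the overlap of EV members with KD stayed higher in the windows when peaks of like strength were set side by side. EV members with −log10 p under 4 overlapped a KD peak in 16.0% of cases, against 7.57% outside. At 5 to 7 the shares were 70.5% in the windows and 39.7% outside, and at 7 to 10 they were 89.0% and 62.7%. The contexts met at the top: with −log10 p of at least 20, 374 of 376 EV members (99.5%) overlapped a KD peak, against 98.7% outside. By width, the share was 24.5% under 1 kb, against 18.1% outside, and 99.0% (285 of 288) at 10 kb or more, against 97.9%. With the outside rates weighted to the members' own mix of strength (6 classes) and width (4 classes), the EV share found in KD was 61.7% in the windows and 53.5% outside, and the KD share found in EV was 96.8% and 88.6%. By bases, the EV length under KD peaks was higher in the windows only below −log10 p of 10. It was 18.4% against 13.6% outside at 4 to 5, and 50.8% against 47.6% at 7 to 10. At 10 to 20 it was 62.8% against 63.5%, and at 20 or more 83.3% against 84.2%. Neither the classes nor the weighting took the density of peaks into account, and the overlap that density alone gives was not computed.

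**Figure D3:**
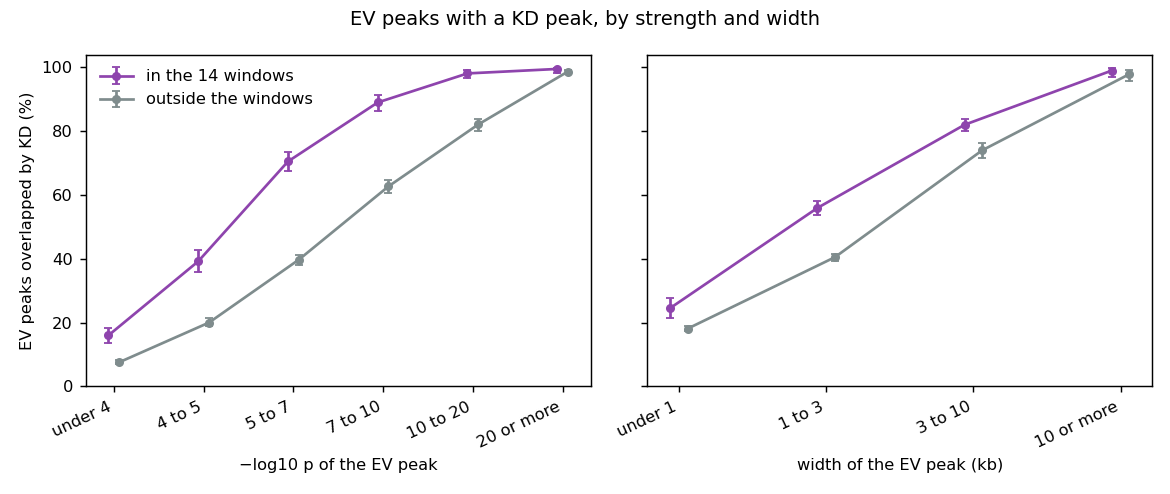
Share of EV peaks (percent) overlapping a KD peak, by class of −log10 p and by class of width, for members of the windows and for peaks outside, with exact 95% intervals (counting error only). Members lie above the outside peaks at −log10 p of 5 to 7 (70.5 against 39.7%), and both are close to 99% at 20 or more.

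Windows also differed from each other at like strength and width. On chromosome 3, 29.7% of EV peaks overlapped a KD peak, where the rates of the other 13 windows in the same classes gave 43.6%. The same values were 23.8% against 35.7% on chromosome 6 and 34.8% against 45.5% on chromosome 17. On the other side were chromosome 12, with 71.1% against 64.2%, chromosome 11, with 59.0% against 52.7%, and chromosome 18, with 73.8% against 67.5%. Chromosomes 2 and 4 were also below the rates of the other windows, with 41.1% against 46.4% and 58.1% against 63.4%.

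Wide EV peaks met several KD peaks. Among EV members, 1685 (38.2%) met none, 2181 (49.4%) met 1 and 550 (12.5%) met at least 2, up to 14. Of those that met any, 20.1% met at least 2, against 11.5% of all EV peaks on chromosomes and 7.85% outside the windows. These shares are not matched for width: 288 of 4416 EV members had at least 10 kb, against 329 of 20249 EV peaks outside. The reverse was rare: 32 of 3770 KD members met at least 2 EV peaks, 0.877% of those that met any, against 0.541% of all KD peaks that met one. The 288 EV members of at least 10 kb held 5.46 Mb, or 32.1% of all bases under EV members. Of these, 244 (84.7%) met at least 2 KD peaks, with a mean of 3.14. KD peaks covered 50.4% of their length, against 57.3% for EV peaks of at least 10 kb outside the windows.

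The widest EV peak in any window ran over 89177 bp at chr8:45586987-45676163, with fold 4.21 and −log10 p 9.65. In KD it met 9 peaks, the widest of 10971 bp, which covered 56.3% of its bases. On chromosome 7 an EV peak of 71008 bp at chr7:58841839-58912846 met 10 KD peaks over 63.2% of its bases. On chromosome 18 an EV peak of 41129 bp at chr18:15645222-15686350 met 4 KD peaks over 60.7%.

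Not every wide EV peak met several KD peaks: of the 288 of at least 10 kb, 41 met 1 and 3 met none. Others met few but were almost wholly covered by them. The widest KD peak of all windows, 58034 bp at chr10:41858043-41916076 with fold 3.81 and −log10 p 26.1, lay inside an EV peak of 72746 bp at chr10:41843464-41916209 with fold 4.07 and −log10 p 58.9. Of that EV peak, 98.0% was under 2 KD peaks, and the right ends of both peaks nearly coincided. At the other extreme, the widest EV peak of the chromosome 6 window, 7521 bp at chr6:58653700-58661220, met no KD peak, and the widest KD peak there had 1835 bp. Over the 14 windows the widest peak had 1835 to 58034 bp in KD and 7521 to 89177 bp in EV. Of the 14 widest EV peaks, 13 met a KD peak, against 82.0% of EV members of 3 to 10 kb and 99.0% of wider ones.

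Joining peaks within 3 kb brought the lists close in number. KD then had 2568 domains over 10.2 Mb and EV 2504 over 21.0 Mb, a length ratio of 0.486. The longest joined domain was 76.3 kb in KD and 377 kb in EV. With gaps of up to 10 kb joined, KD had 819 domains and EV 605, with a length ratio of 0.643, and the longest were 1508 kb in KD and 2655 kb in EV.

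Cut into 500 full bins of 100 kb, the windows were lower in KD at nearly every place. KD covered less than EV in 467 bins and more in 2, and 31 had no peak in either. Of the 469 bins with a peak, 99.6% were lower in KD, against 90.1% of bins with a peak over all chromosomes, and 0.426% were higher, against 9.9%. Both exceptions were on chromosome 20, the larger with 0.96% covered in KD and none in EV. The median bin was covered to 11.1% in KD and 29.3% in EV. The order of bins was much alike: Spearman's rho between KD and EV coverage was 0.921 and Pearson's r 0.906 over the 500 bins, which share both libraries and neighbouring sequence.

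**Figure D4:**
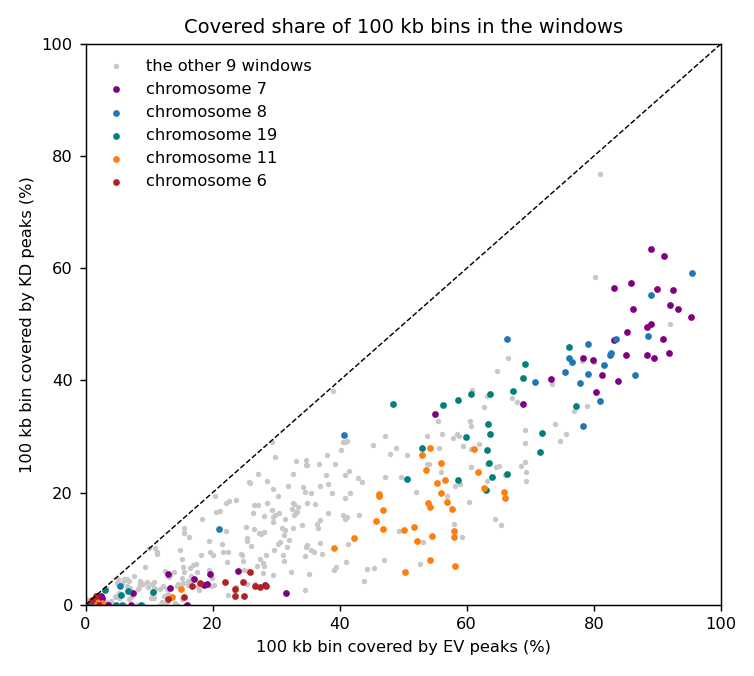
Covered share (percent) of 500 bins of 100 kb in the windows, KD on the vertical axis against EV on the horizontal axis, 1 point per bin, with the line of equal coverage and chromosomes 6, 7, 8, 11 and 19 in colour. All but 2 of the 469 bins with a peak lie below the line, and EV reaches 95.5% where KD reaches at most 76.8%.

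Densely marked bins lay in long runs. EV peaks covered at least 50% of 149 bins, on 10 chromosomes, and KD peaks covered at least 50% of 15. In the 149, KD coverage ran between 5.9 and 76.8%, with a median of 31.2%. The longest run was 27 bins on chromosome 7, from 58.17 to 60.87 Mb, with a mean of 48.1% in KD and 84.8% in EV. Chromosome 5 had 23 bins in a row from 47.3 to 49.6 Mb, at 30.6% in KD and 60.8% in EV. Chromosome 12 had 22 from 34.95 to 37.15 Mb, at 27.1% in KD and 67.2% in EV. Chromosome 19 had 19 from 24.9 to 26.8 Mb, at 30.3% in KD and 64.0% in EV, and chromosome 8 had 18 from 44.04 to 45.84 Mb, at 44.1% in KD and 80.6% in EV. Within chromosome 11, the 11 bins from 51.52 to 52.62 Mb had a mean of 19.9% in KD and 56.5% in EV. No bin reached 50% in EV on chromosomes 3, 4, 6 and 17. The longest such run in KD was 5 bins on chromosome 7, from 58.57 to 59.07 Mb, with 55.8% in KD and 92.4% in EV.

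**Figure D5:**
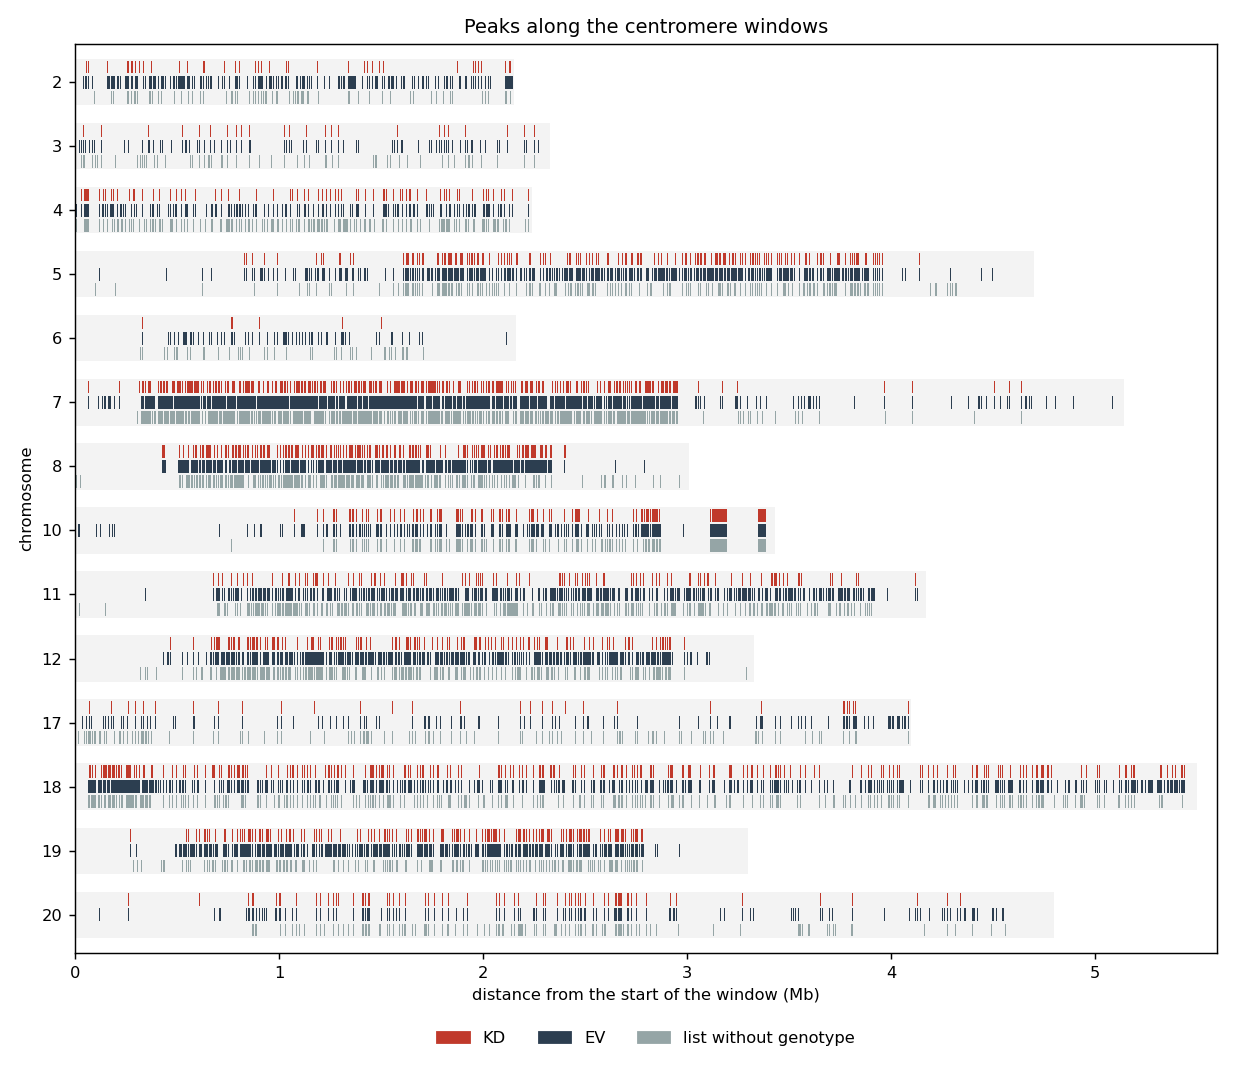
Peaks of each list along the 14 windows, drawn as blocks at their distance in Mb from the window's start. On chromosome 7 the dense block of EV, 27 bins of 100 kb at a mean of 84.8%, is broken into shorter peaks in KD, at a mean of 48.1%.

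The longest stretch without a peak was longer in KD in each window except that of chromosome 11, where it was 327 kb in KD and 331 kb in EV. The longest of all was 700 kb on chromosome 10, where the longest in EV was 423 kb. On chromosome 5 it was 616 kb in KD and 174 kb in EV. The chromosome 6 window had a gap of 429 kb in KD and 406 kb in EV, close to each other, and on chromosome 18 the longest were 68.1 kb in KD and 52.3 kb in EV.

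The highest-fold peak of each window, in KD and in EV, had a partner in the other list. All 14 highest-fold KD peaks of the windows met an EV peak and all 14 highest-fold EV peaks met a KD peak. This is close to the rate of like peaks, since 96.8% of all KD members met an EV peak. The 14 EV peaks each had −log10 p of at least 10. Of EV members at 10 to 20, 98.1% met a KD peak, and of those at 20 or more, 99.5%. The widths of the highest-fold peaks ran between 1016 and 3592 bp in KD and between 1445 and 2710 bp in EV. Their medians were 1805.5 bp in KD and 1894.5 bp in EV, against 1463 and 2373 bp over all members. In 7 windows (chromosomes 3, 4, 5, 7, 12, 19 and 20) the highest-fold peak was at the same place in KD and EV. On chromosome 19 it lay at chr19:27271049-27272867 in KD, with fold 10.2 and −log10 p 70.4, and at chr19:27271003-27272971 in EV, with fold 12.6 and −log10 p 167. On chromosome 4 it lay at chr4:51034714-51036261 in KD with fold 10.2, and at chr4:51034642-51037006 in EV with fold 11.9. The chromosome 7 pair lay at chr7:61836461-61838002 in KD with fold 8.16, and at chr7:61836333-61838122 in EV with fold 10.4. Each of the 3 KD peaks lies within the bounds of its EV partner.

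By −log10 p the strongest member of both lists was on chromosome 5. It lay at chr5:49656744-49661843 in KD (5100 bp, fold 4.23, −log10 p 264) and at chr5:49656734-49661844 in EV (5111 bp, fold 4.75, −log10 p 636). A second chromosome 5 peak, at chr5:49599517-49603021 in KD, had −log10 p 136 in KD and 306 in EV. On chromosome 4, the KD peak at chr4:49709362-49711858 had −log10 p 158 and its EV partner 127. These 3 places were marked in both lists, with the chromosome 5 boundaries nearly identical.

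Of 2440 regions made by joining the KD and EV peaks of the windows within 3 kb, 1559 (63.9%) held peaks of both lists and spanned 19.4 Mb. Another 850 (34.8%) held EV peaks only and spanned 2.17 Mb, with a median of 1.5 kb, and 31 (1.27%) held KD peaks only and spanned 24.47 kb. The same shares outside the windows were not computed. Regions with EV peaks only were most numerous on chromosome 17, with 136 beside 80 of both lists, and chromosome 3, with 103 beside 56. Chromosome 6 had 70 beside 43, and chromosome 8 had 11 beside 32. The longest region with EV peaks only was 24.8 kb at chr6:58642325-58667100, with 6 EV peaks. The next were 20.8 kb at chr2:92419952-92440781, 15.8 kb at chr12:36176172-36191939, 15.4 kb at chr4:49826018-49841401 and 14.9 kb at chr20:29997466-30012357. The longest with KD peaks only was 2.08 kb at chr4:50655110-50657188, followed by 1.83 kb at chr11:54002243-54004075. The longest regions of both lists were on chromosome 7, the first of 391 kb at chr7:59704905-60096141 with 60 KD and 34 EV peaks.

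The 120 KD members without an EV peak lay at a median distance of 1630 bp from one, and 89 (74.2%) were within 3 kb. Only 5 were beyond 10 kb, the farthest at 60.0 kb. EV peaks were dense in the windows, at 87.7 per Mb over 33.7% of the sequence. The distance that this density alone gives was not computed. The strongest of the 120, at chr17:25074353-25074676, was 324 bp wide with fold 1.99 and −log10 p 12.1. The strongest EV member without a KD peak, at chr17:25920107-25920543, was 437 bp wide with fold 2.35 and −log10 p 24.4.

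At the 28 window edges the nearest KD member had its midpoint a median of 55.4 kb inside and the nearest non-member 92.7 kb outside, with median widths of 918.5 and 1068.5 bp. For EV the distances were 39.0 kb inside and 38.4 kb outside, with widths of 1326.5 and 1219 bp.

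The windows are poor in genes. RefSeq places 60 genes with their midpoint in a window, 53 of them on chromosome 20, and only NANP and ZNF337 code for proteins. Peaks covered at least 10% of the gene body in 6 of the 60 genes in KD (10.0%), against 1.27% of all genes on chromosomes. The number was 11 in EV (18.3%, against 2.66% of all genes) and 13 in the unnamed list (21.7%, against 0.969%). Of the genes with a peak in KD or EV, 19 were covered less in KD and 4 more. The same count over all genes was not made. Over all chromosomes, KD covered less than EV in 90.1% of the 100 kb bins with a peak. NANP, a phosphatase of sialic acid synthesis at chr20:25612935-25624014, had no peak in KD or EV. ZNF337, a KRAB zinc-finger gene at chr20:25673195-25696853, was covered to 2.9% in KD and 3.4% in EV. Its peak ran over 687 bp in KD (fold 3.03, −log10 p 13.0) and 804 bp in EV (fold 3.62, −log10 p 31.7).

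The genes covered to 10% or more in both lists were all annotated as pseudogenes. KSR1P1, a pseudogene of the scaffold gene KSR1 on chromosome 10, was covered to 84.5% in KD and 100% in EV. On chromosome 20, LOC107987277 was covered to 39.9% in KD and 47.7% in EV, and LOC107987278 to 46.8% in KD and 56.7% in EV. The DUX4-like pseudogenes, copies of the DUX4 homeobox gene, were covered slightly more in KD: DUX4L34 was covered to 82.7% in KD and 80.2% in EV, and DUX4L37 to 95.6% in KD and 89.1% in EV. LOC101060796 on chromosome 7 had 27.4% in KD and 26.6% in EV. DUX4L32, DUX4L33, DUX4L35 and DUX4L36 had no peak in KD or EV. They belong to a multigene family whose copies may share reads, which was not tested, so the values of single copies are uncertain. In EV, but not to 10% in KD, LOC110467521, LOC110467522 and RNA5SP532 were each covered to 100%, and LOC110467538 to 20.6%.

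In EV, MIR663A lay under the peak that also covers the promoter of its host gene, shown above. The whole microRNA gene was under that EV peak, chr20:26208152-26209734 (1583 bp, fold 3.57, −log10 p 6.29). In KD the peak chr20:26208478-26209932 (1455 bp, fold 5.09, −log10 p 6.55) overlapped the EV peak and covered the MIR663AHG promoter. Its near end lay 213 bp from the mature hsa-miR-663a sequence, so the microRNA was under a peak in EV only. The peak of LOC101926935, found in EV only, had fold 2.93. Among the 16 promoters of window genes in the table, chosen without chromosome 8, KD peaks met 1 and EV peaks 2. The share of all promoters met by KD or EV peaks was not computed.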

How the data were processed

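The lists are broad peaks of H3K9me3 ChIP-seq in HEK293T, 1 library per group. Bowtie2 is named as aligner, MACS2 as peak caller and GRCh38 as build, without versions, per the submitters' processing notes. The sources used here do not give the calling options, the control behind each list or the read filters. Fold enrichment, a ratio of signal to background, was deposited per peak by the authors. The deposited −log10 p and −log10 q come from the authors' caller, and no list goes below a −log10 q of about 1.0. The KD and EV lists were matched to samples by name. The remaining list was not assigned to WT.

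Windows are fixed Mb bounds on GRCh38, coordinates count from 1, and peaks on chromosomes 1 to 22, X and Y were used. Overlap (at least 1 bp) and covered bases came from numpy functions that gave the counts of bedtools 2.31.1 on simulated data. Intervals are exact Clopper-Pearson 95% (scipy 1.17.1, Python 3.11.15, pandas 2.3.3, numpy 2.4.6, matplotlib 3.10.9). Outside rates weighted to the members used classes with at least 20 outside peaks. Genes, promoters and microRNAs came from RefSeq tables of GRCh38.p14. No genome sequence was used here, so planned counts of GC and of the CENP-B box were not run. Depth is unknown.

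Named were, per window and list, the widest and the highest-fold peak, the 5 longest merged regions of KD only and of EV only, genes covered to at least 10% and the protein-coding genes. The strongest peaks by −log10 p, wide peaks and bins singled out beside these were chosen after their values were seen, and the text gives a selection. Windows, lists and tests were chosen with earlier results of these data known.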

Additional observations from a re-analysis of the deposited data

Results flagged for a closer look

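The list that carries no genotype in its name enters no comparison between groups and held 4823 peaks in the windows. It is listed here only because it lies outside the KD and EV comparison, and its values in the windows follow under the other observations.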

How the results depend on the processing

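KD covered less than EV in 14 of 14 windows as reported, at −log10 q of at least 2, at fold of at least 3 and with the EV list limited to KD's number of peaks. The covered-length ratio of 0.456 ran between 0.442 (without chromosome 7) and 0.472 (without chromosome 11) when single windows were left out, and the number ratio between 0.802 (without chromosome 7) and 0.883 (without chromosome 6). The KD share found in EV then ran between 96.5 and 97.3% and the EV share found in KD between 59.6 and 63.7%. The share of a list's covered length in the windows, which can only fall when a window is left out, ran between 31.1 and 37.4% in KD, 28.6 and 33.1% in EV and 33.1 and 39.5% in the unnamed list.

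The number ratio of 0.854 crossed 1 in 4 settings: 1.07 at fold of at least 3, 1.03 with peaks merged within 3 kb, 1.29 with the EV list limited to KD's number of peaks and 1.35 with peaks merged within 10 kb, a setting added after seeing the data. It was 0.711 at −log10 q of at least 2. The KD share found in EV was 97.7% at −log10 q of at least 2, 84.9% at fold of at least 3, 87.5% at equal numbers, 35.9% at 50% reciprocal overlap and 98.2% merged within 10 kb. The EV share found in KD was 56.7%, 68.1%, 82.0% and 30.6% in the first 4 of these and 64.5% merged within 3 kb. The cause of these shifts was not tested. The covered-length ratio ran between 0.391 at −log10 q of at least 2 and 0.645 merged within 10 kb. The share of covered length in the windows, as reported 37.6% in KD and 33.6% in EV, was 46.0% and 36.5% merged within 10 kb. With the EV list limited to KD's number of peaks, it was lower in KD than in EV, at 37.6% and 38.4%. No paired analysis was possible because each group had 1 library. Without read counts, fewer or narrower peaks in KD cannot be told apart from lower depth, and the matching of reads to repeats was not tested.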

Other observations

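The list without a genotype in its name covered 23.7% of the windows with 4823 peaks of a median width of 1619 bp, 118 of them at least 10 kb wide. The windows held 33.6% of its peaks and 40.1% of its covered length. By window its coverage ran between 9.04% on chromosome 6 and 40.8% on chromosome 7. No genotype is assigned to it, so no difference from KD or EV is read from its values.

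By bases, 4.91 Mb lay under peaks of all 3 lists (23.7% of the sequence under any peak), 6.06 Mb under EV only, 3.26 Mb under the unnamed list only and 0.254 Mb under KD only, and 29.7 Mb of the windows (58.9%) lay under none.

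Single places varied. The chromosome 10 domain had a peak of 72473 bp at chr10:41843409-41915881 in the unnamed list. The 89177 bp EV peak on chromosome 8 met 14 of its peaks, over 35.0% of its bases. The strongest chromosome 5 peak lay at chr5:49656699-49661861, with fold 5.48 and −log10 p 363. Its highest fold, 20.8, was at chr17:23619410-23621761, where the KD peak had 9.74 and the EV peak 9.33. It had no peak on the MIR663AHG promoter, and the nearest to the mature hsa-miR-663a was 131575 bp away. Among the genes it covered to at least 10% were DUX4L35 (40.6%) and DUX4L36 (64.4%), which had no peak in KD or EV. It had no peak on DUX4L37.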
